A study of Mus musculus with 14 samples.

Results

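T-cell receptor (TR) gene segments are the germline pieces from which the receptor genes of T cells are assembled, and their DNA variants were counted here in 12 mouse mammary tumours. The segments were all genes whose biotype in the deposited per-gene variant tables starts with TR_. There were 241 of them among 52292 genes listed in at least 1 of the 12 tables. Of these, 202 were annotated as genes (127 V, 4 D, 63 J and 8 C segments) and 39 as pseudogenes (29 V and 10 J). By locus, 165 belonged to Tra, 11 to Trd, 51 to Trb and 14 to Trg. Tra and Trd share a stretch of chromosome 14, with the Trd segments lying inside Tra, while Trb is on chromosome 6 and Trg on chromosome 13.

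In a developing T cell the RAG1 and RAG2 proteins cut at signal sequences beside the segments, and end-joining proteins fuse a V segment to a J segment, with a D segment between them in the beta and delta chains. The joined V region is then spliced to a constant (C) segment. The alpha chain comes from Tra and pairs with the beta chain from Trb, and the gamma chain from Trg pairs with the delta chain from Trd. In cells outside the lymphoid lineage, such as the epithelial cells of a mammary tumour, the segments keep their germline order. The mouse Tra locus holds repeated blocks of V segments, and the copies carry a d or an n in their names (Trav9d-2, Trav14n-3).

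All 12 tumours grew from Balb/c p53null mammary fragments, taken from syngeneic donors aged 8 to 10 weeks, and were collected at a maximum diameter of 2 cm. The soft (A1, A2, A3) and stiff (A7, A8, A9) groups grew in wild-type females aged 3 to 4 weeks, in mammary fat pads that had been cleared and given a gel of collagen 1 and basement membrane extract. The gel was not crosslinked in the soft group and was crosslinked with L-ribose (500 mM) in the stiff group. The other tumours grew without a gel in LysM-Cre GPX4 WT hosts (B1, B2, B3) or LysM-Cre GPX4 KO hosts (B4, B5, B6). LysM-Cre acts in myeloid cells of the host, so the deletion of GPX4, a peroxidase that reduces lipid peroxides, was not in the implanted fragment. Each group had 3 tumours. The labels call them separate samples and say no more of their origin, so p-values reflect no more than the spread among these samples. A pair of tail samples was not analysed here.

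The tables hold, for each transcript, the number of variants in each snpEff class. HIGH covers frameshifts, stop gains and splice-site changes, MODERATE covers missense and in-frame changes, and LOW covers synonymous and splice-region changes. HIGH, MODERATE and LOW are summed below as coding variants, so the start gains are included although they lie in UTRs. MODIFIER covers variants upstream or downstream of a segment, in introns, in exons of non-coding transcripts and the other variants in UTRs. The tables give neither positions, read depth nor allele fraction, so an equal count in several tumours does not establish that the variants are the same.

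The 12 tumours carried between 24 and 95 coding variants in the 202 TR genes (median 42.0). Across all 241 segments they carried 1259 to 3791 MODIFIER variants. A tumour listed between 145 and 193 of the segments. A9 (stiff) and B5 (KO host) stood apart: their MODIFIER sums were 1259 and 1276, against 2216 to 3791 in the other 10 tumours. The same pair was low outside the TR loci, where their mean MODIFIER sum over protein-coding genes was 69.2% of that of the other 10, against 49.8% for the TR segments and 51.4% for the immunoglobulin segments. At the upper end, B1 (WT host) carried 95 TR coding variants, 1.76 times the next highest tumour.

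Most coding variants lay in V segments, which encode most of the antigen-binding domain. Of the 241 segments, 70 had a coding variant in any tumour: 58 of the 127 V genes, 7 of the 63 J genes, 4 of the 8 C genes, none of the 4 D genes and 1 of the 39 pseudogenes. In V genes the sum per tumour ran from 18 to 87 with a median of 38.5. Of the 70, 7 segments carried coding variants in all 12 tumours, 30 in 2 to 11 tumours and 33 in a single tumour. The 7 shared segments, Trav5-4, Trav9d-2, Trav16, Trav6d-7, Trav14d-2, Traj21 and Traj35, held 40.1% of all TR coding variants counted. Together they gave 13 to 20 variants in each tumour. The range between tumours was therefore wider outside them: 9 in A9, 11 in B5, 14 to 28 in the other gel tumours, 26 to 37 in the other host tumours except B1, and 76 in B1.

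**Figure D1:**
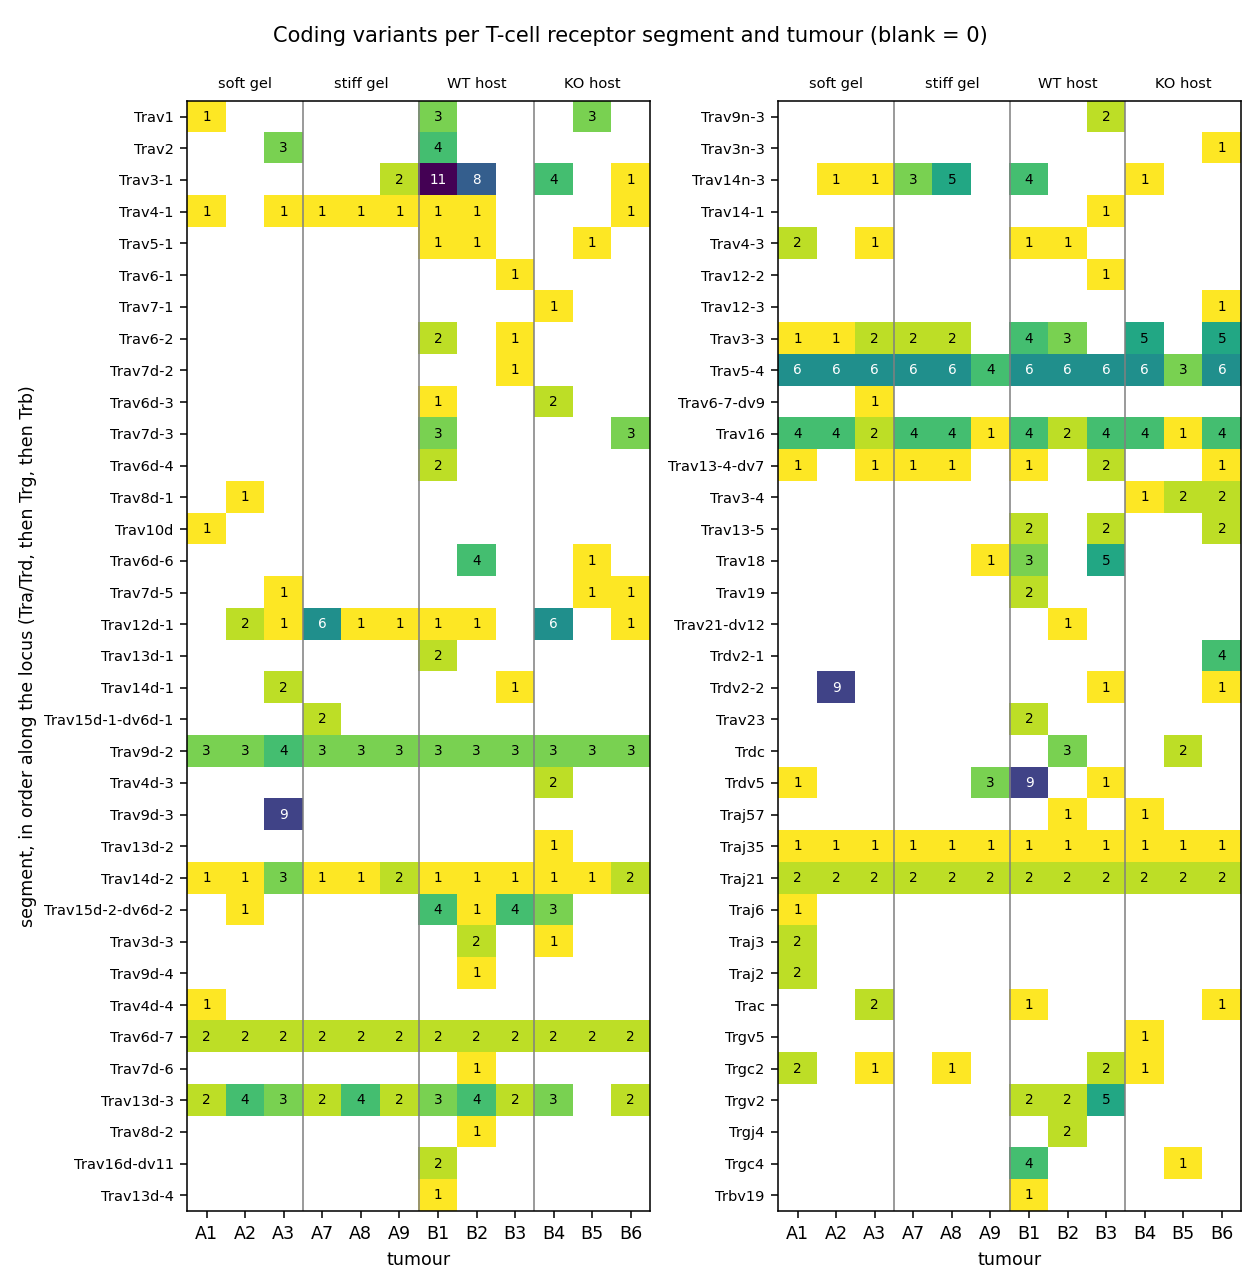
Coding variants (HIGH, MODERATE and LOW together) in each of the 70 segments with any, with segments in locus order on the vertical axis and the 12 tumours in 4 groups on the horizontal axis. Unbroken rows such as Trav9d-2, Trav6d-7, Traj35 and Traj21 contrast with segments filled in 1 tumour, such as Trav9d-3 in A3.

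Trav5-4 had the highest mean coding count of any segment, 5.58 ± 0.996 (SD, n = 12). It carried 6 coding variants in every tumour except A9, with 4, and B5, with 3. In the 10 tumours at 6, the classes were identical: 1 frameshift, 1 stop gain, 1 splice-donor change, 1 missense and 2 synonymous variants. A9 and B5 kept the splice-donor change and had neither the frameshift nor the stop gain. Frameshifts and stop gains alter or end the reading frame of the annotated transcript.

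Trav9d-2 carried 3 coding variants in 11 tumours and 4 in A3. Its effects in every tumour included 2 frameshifts and 1 stop gain, counted as 2 HIGH variants because 1 variant can carry more than 1 effect. Trav6d-7 carried exactly 2 in every tumour, 1 frameshift and 1 synonymous variant. With Trav5-4, they were the 3 segments with a HIGH variant in all 12 tumours. Of the 22 segments with any HIGH variant, 12 had it in a single tumour.

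Trav16 carried 4 coding variants in 8 tumours, 2 in A3 and B2, and 1 in A9 and B5. Its variants were synonymous or missense, with at least 1 synonymous variant in each tumour. Trav14d-2 carried 1 coding variant in 9 tumours, 2 in A9 and B6, and 3 in A3, and every tumour had 1 splice-region variant there. Trav13d-3 fell short of the shared set by 1 tumour, with 2 to 4 coding variants in 11 tumours and none in B5.

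A second kind of V segment carried many coding variants in 1 or a few tumours. Trav9d-3 had 9 coding variants in A3, 3 of them HIGH, and none in the other 11. Trdv2-2, a delta-chain V segment, had 9 in A2, 1 in B3, 1 in B6 and none elsewhere. Trdv5 had 9 in B1, 3 in A9, 1 in A1, 1 in B3 and none in the other 8. The 3 highest counts fell in 3 different tumours, A3 and A2 of the soft group and B1 of the WT hosts, and no group had all 3 of its tumours high in any of these 3 segments.

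Trav3-1, near the start of the locus, had 11 coding variants in B1, 8 in B2, 4 in B4, 2 in A9, 1 in B6 and none in the other 7 tumours. B1 and B2 held 5 frameshifts between them, and no other tumour had one there. Trav12d-1 had 6 coding variants in A7 and 6 in B4, 2 in A2, 1 in 6 tumours and none in A1, B3 and B5. A single frameshift was listed for Trav12d-1 in each of the 9 tumours with a count. Trav3-3 had 5 in B4 and B6, 4 in B1, 3 in B2, 1 or 2 in the soft tumours and in A7 and A8, and none in A9, B3 and B5. Trav3-1, Trav12d-1 and Trav3-3 each ranged from 0 to at least 4 within a host group.

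Among the V families, Trav5 held 70 coding variants over the 12 tumours, nearly all in Trav5-4, followed by Trav3 with 60, and Trav13 and Trav9 with 49 each. All 5 Trav3 segments had coding variants, but the family sum ran from 0 in the lowest tumour to 15 in the highest. Coding variants were listed in 27 of the 34 d copies (79.4%), 22 of the 42 Trav genes without d or n (52.4%) and 3 of the 19 n copies (15.8%). Their MODIFIER counts were not ordered this way, with means per segment and tumour of 8.47 in d copies, 13.3 in those without a letter and 9.13 in n copies. Copies are close in sequence, and how reads that match more than 1 copy were handled is not given in the sources used here, so counts of single copies are uncertain. Of the TR segments in the RefSeq table, 29 were listed in none of the 12 tables used here, among them several n copies.

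J segments, which encode the short stretch between the V (or D) part and the constant region, carried few coding variants. Per tumour the 63 J genes held between 3 and 8, and the shared minimum of 3 came from the same pair of segments throughout. Traj21 carried 2 missense variants in each of the 12 tumours. Traj35 carried 1 synonymous variant in each of the 12. The remaining J variants were scattered: Traj2 and Traj3 had 2 each in A1 alone, Traj6 had 1 in A1, Trgj4 had 2 in B2, and Traj57 had a stop gain in B2 and in B4.

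Traj18 and Traj33, the J segments of the invariant alpha chains of NKT cells and MAIT cells, had no coding variant in any tumour. Their V partners differed. Trav11 and its copy Trav11d, used by NKT cells, had none, and Trav1, used by MAIT cells, had 3 in B1, 3 in B5 and 1 in A1. These segments were singled out for their known roles after the values had been seen.

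None of the 4 D segments, which add to the junction of the beta and delta chains, had a coding variant in any tumour. Trdd1 nonetheless had between 25 and 61 MODIFIER variants in each tumour and Trdd2 between 17 and 49, while Trbd1 and Trbd2 had at most 1.

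The C segments encode the constant domain and the membrane anchor. Trgc2 had 2 coding variants in A1, 1 in A3, 1 in A8, 2 in B3 and 1 in B4, and 6 of these 7 were synonymous. Trgc4 had 4 in B1, including a frameshift, and 1 in B5. Trdc had 3 missense variants in B2 and 2 in B5. Trac, the only alpha constant segment, had 2 in A3, 1 in B1 and 1 in B6, and the A3 variants included a splice-donor change. The other 4 constant segments, Trbc1, Trbc2, Trgc1 and Trgc3, had none. No constant segment had coding variants in all 3 tumours of any group.

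Of the 39 pseudogenes only Trav4-1 had a variant in a coding class, 1 splice-region variant in 8 tumours and none in A2, B3, B4 and B5. Exon variants of pseudogene transcripts are listed as MODIFIER. Trdv3 had 7 of these in A2, A7, A8 and B2, 4 in A1 and B1, 2 in A3, 1 in B3, B4 and B6, and none in A9 and B5. Trav15n-3 had 3 in each WT host tumour, 2 in B6 and none in the other 8. Its whole MODIFIER counts overlapped between the hosts, at 55, 27 and 29 in WT and 31, 7 and 29 in KO hosts. In MODIFIER counts the pseudogenes did not stand below the genes, with a mean of 10.8 per pseudogene and tumour against 9.47 per gene and tumour.

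The beta locus was almost free of variants. Its 51 segments held 1 coding variant in all, in Trbv19 in B1. The 51 segments together had 6 to 39 MODIFIER variants per tumour, and no single segment exceeded 4 in any tumour. The median segment had a mean of 0.333 MODIFIER variants per tumour in Trb and 9.33 in Tra. A9, low elsewhere, had the highest Trb sum: 0.765 MODIFIER variants per segment against 0.275 in B5 and 0.327 on average in the other 10. Between 4 and 28 of the 51 segments were listed in a tumour.

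The gamma locus was divided along its length. The first 8 segments in RefSeq order, from Trgv4 to Trgc3, had at most 2 MODIFIER variants each in any tumour and 1 coding variant in all, an in-frame deletion in Trgv5 in B4. The last 6, from Trgc2 to Trgc4, had a mean of 14.5 MODIFIER variants per segment and tumour and 23 coding variants over the 12 tumours. Trgc2 alone had 35 to 57 MODIFIER variants in every tumour. The boundary fell at the same place in all 12 tumours, between Trgc3 and Trgc2.

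Along Tra and Trd the MODIFIER counts rose and fell in blocks. Trav9-4 had the highest mean of the alpha V genes, with 44 to 82 in 10 tumours and 15 in both A9 and B5. Within the J cluster, Traj39 to Traj31 had a mean of 19.9 per segment and tumour, and Traj26 to Traj16 had 21.3. The 4 segments between them, Traj30 to Traj27, had 2.92, and Traj40, just before the first block, had at most 3 in any tumour. Traj41 to Traj47, which lie next to Traj40, were listed in none of the 12 tables used here.

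Parts of these J blocks had the same count from segment to segment. The sum of coding and MODIFIER variants was equal for all 7 segments from Traj38 to Traj32 in each of the 12 tumours (17 to 26), and equal for all 4 from Traj26 to Traj23 (15 to 32). The synonymous variant of Traj35 was part of this: adding it to its own MODIFIER count gave the total of its neighbour Traj34 in 12 of 12 tumours. Among adjacent Traj pairs, 11 of 52 had equal totals in all 12 tumours, against none of 108 adjacent Trav pairs. Since a variant near several closely spaced segments is listed for each, MODIFIER sums count some variants repeatedly, and neighbouring segments are not independent.

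**Figure D2:**
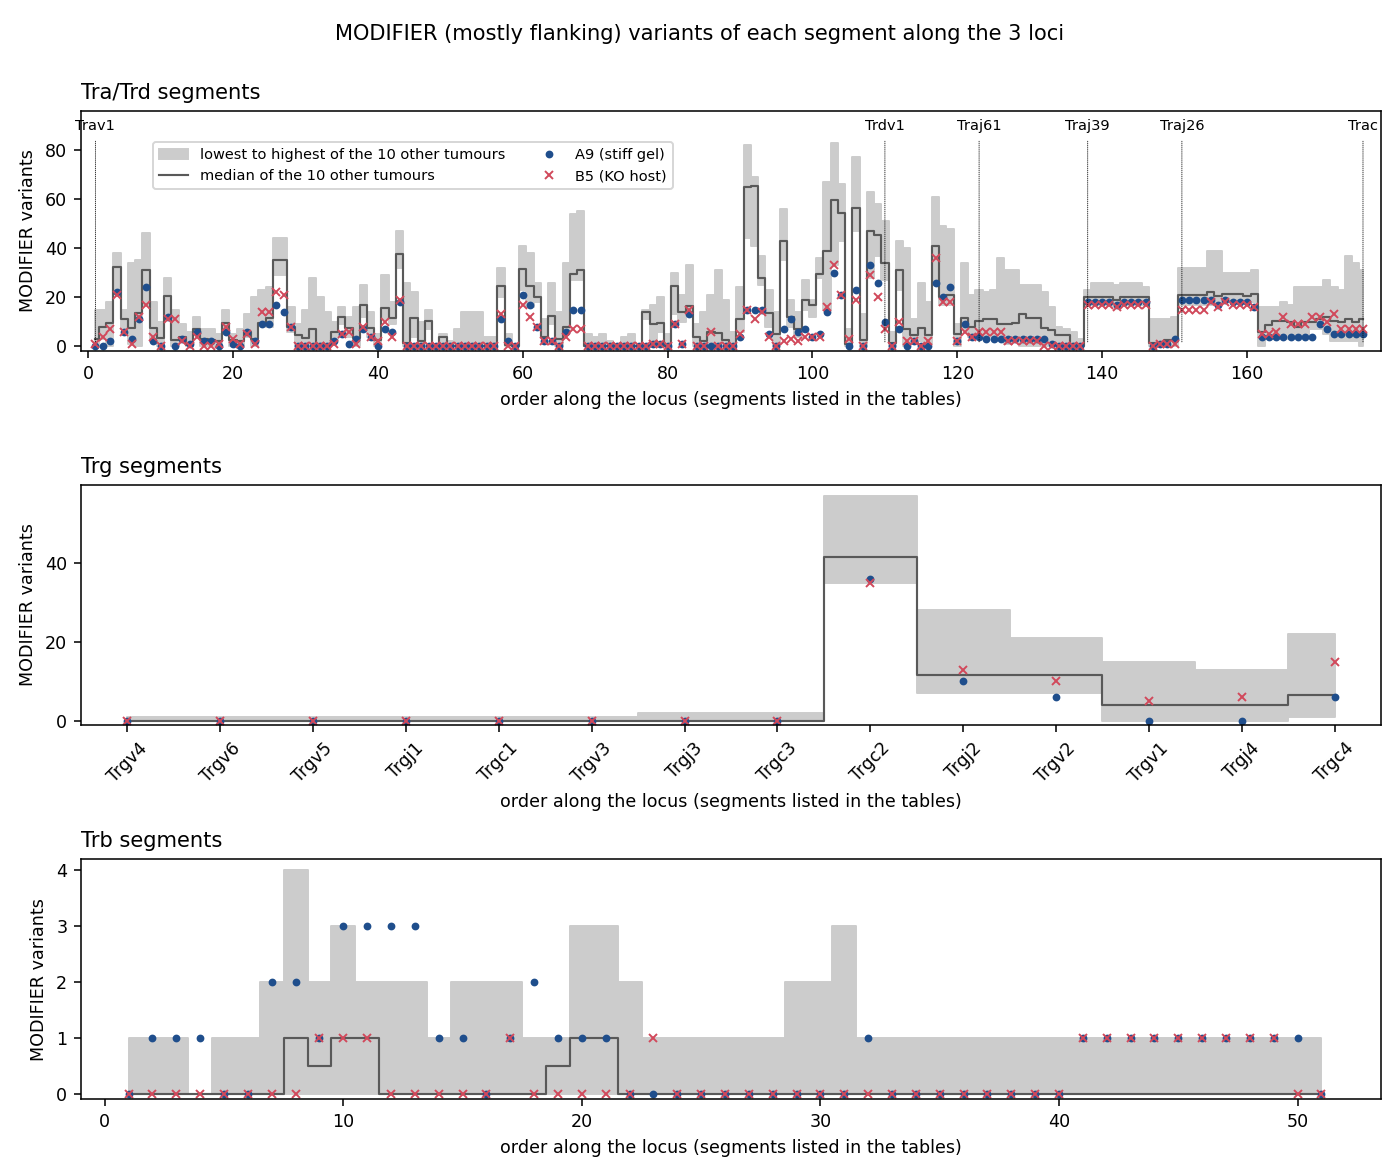
MODIFIER variants per segment (vertical axes, with a different scale in each panel) in the order of the segments along Tra/Trd, Trg and Trb. The grey band spans the 10 tumours other than A9 and B5 and the line is their median. A9 (dots) and B5 (crosses) fall below the band over much of the alpha V region. From Traj39 to Traj31 they lie within the band, and their mean is 85.3% of that of the other 10. From Traj61 to Traj48 they lie within the band or close to its lower edge, although their mean is 24.4% of that of the other 10.

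The deficit of A9 and B5 was uneven along the locus. Over all V genes their mean MODIFIER count was 38.7% of that of the other 10 tumours, over J genes 70.4% and over the last 6 Trg segments 78.5%. Within the J cluster it was 24.4% from Traj61 to Traj48, 85.3% from Traj39 to Traj31, 30.3% from Traj30 to Traj27, 78.3% from Traj26 to Traj16 and 63.2% from Traj15 to Traj11. The low percentages there were not particular to A9 and B5. From Traj61 to Traj48 another tumour had a lower mean per segment (1.79) than A9 (2.29) and B5 (2.43). The same held from Traj30 to Traj27 (0.0 against 1.25 and 0.75) and from Traj15 to Traj11 (3.0 against 4.0 and 7.4). Trav7-5 had 11 to 15 MODIFIER variants in each of the other 10 and 0 in both A9 and B5. Trav13-3 had 35 to 56 in the other 10, 7 in A9 and 2 in B5. Of the 113 segments with MODIFIER variants in all other 10 tumours, 42 (37.2%) had both A9 and B5 below every other tumour, against 11% of 12078 protein-coding genes chosen the same way. A9 and B5 were picked because they were low, so these figures describe them and carry no test. Read depth was not available per segment, and its part in the deficit was not tested.

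By effect, synonymous and missense variants led, with medians of 15.0 and 13.5 per tumour over the 202 genes. Frameshifts were listed 3 to 12 times per tumour (median 5.0) and stop gains 1 to 4 times. Upstream and downstream variants made up most of the MODIFIER class, with medians of 898.0 and 940.0. HIGH variants summed to 7 in A1, A2, A7, A8 and B6, 6 in A9, 4 in B5, 12 in A3, 17 in B1, 13 in B2, 10 in B3 and 11 in B4. The high values of A3, B1 and B2 included the 3 HIGH variants of Trav9d-3 in A3 and the frameshifts of Trav3-1 in B1 and B2.

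Compared with other genes, fewer TR segments had any coding variant: 29.0% of TR segments and 30.5% of 393 immunoglobulin (IG) segments, against 65.9% of 21311 protein-coding genes, which are longer. Relative to the variants around them, coding variants were also fewer. There were 1.53 to 2.53 coding per 100 MODIFIER variants in TR segments of the 12 tumours, 2.41 to 3.28 in IG segments and 3.89 to 4.61 in protein-coding genes. The TR and protein-coding ranges did not overlap. Of features with any coding variant, 47.1% of TR segments had it in a single tumour, against 34.2% of IG segments and 28.2% of protein-coding genes, and 10.0%, 12.5% and 15.7% had it in all 12. These are descriptions with no test, since neighbouring segments share variants and lengths differ.

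**Figure D3:**
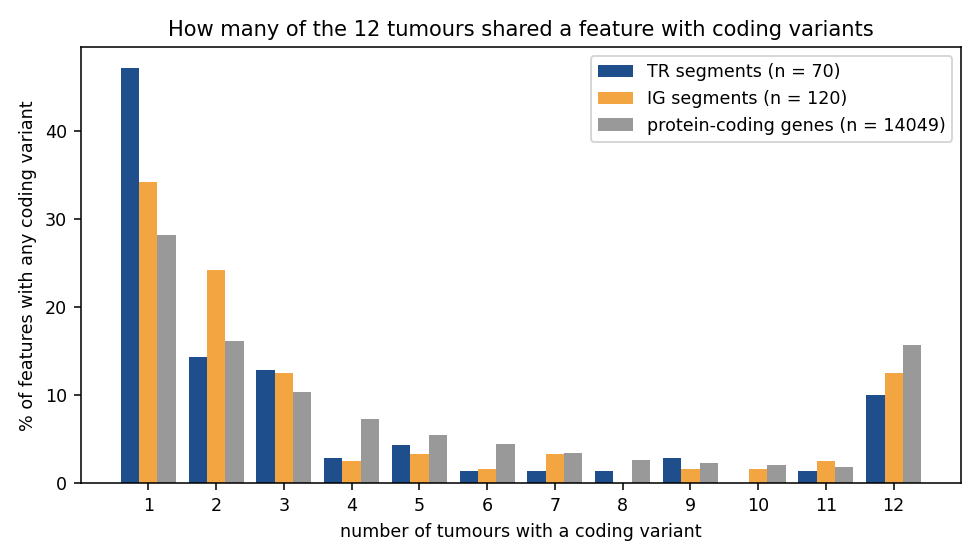
Share of the features with any coding variant (vertical axis, %) by the number of the 12 tumours that carried it (horizontal axis), for 70 TR segments, 120 IG segments and 14049 protein-coding genes. Of the 3 sets, TR segments have the highest share at 1 tumour, 47.1%, and the lowest at 12 tumours, 10.0%.

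The genes that assemble and signal through the receptor were read from a list of 27 protein-coding genes. Coding variants were found in 17 of the 27, beside 65.9% of all protein-coding genes. In 3 of the 27 they were found in all 12 tumours, beside 2202 of 21311 protein-coding genes, and in 5 in at least 6 tumours. Among the assembly factors, Dntt (the polymerase that adds bases at the joints) had 1 to 4 in every tumour and Xrcc4 (a partner of the end-joining ligase) 1 to 3. Prkdc, the end-joining kinase, had 0 in B6 and 1 to 4 in the others, and Rag1 had 5 in A3, 4 in B5, 1 in A2, B1, B2, B3 and B4, and 0 in the other 5. Of the signalling genes, the kinase Lck had 2 or 3 in every tumour, while Cd3d, Cd3e, Cd247, Cd4 and Cd8a had none. Not all receptor partners were empty: Cd3g had 1 in B5, and Cd8b1 had 2 in A2, 1 in A8 and 1 in B5. Other signalling genes had coding variants in part of the tumours, such as Lcp2 in 5. The list's median gene had a mean of 0.0833 coding variants per tumour, against 0.167 over all protein-coding genes. With edgeR's quasi-likelihood test, 10 list genes were tested between stiff and soft, 7 between KO and WT hosts and 12 between gel and host. None passed an adjusted p of 0.05, as with 0.0% of all genes tested in each comparison. An unadjusted p under 0.05 was found for 0, 1 and 0 of them, beside 2.7%, 3.96% and 11.4% of all genes. DESeq2 called no gene of the exome between stiff and soft or KO and WT. Between gel and host it called 6 of 9410 genes, which were not split by this list.

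The stiff and soft gels address how tissue tension relates to DNA damage. The TR genes of the soft tumours carried 36, 38 and 48 coding variants (A1, A2, A3) and those of the stiff tumours 35, 33 and 24 (A7, A8, A9). The stiff tumours all lay below the soft ones, though A7 and A1 were 1 variant apart. The means were 30.7 ± 5.86 (SD, n = 3) and 40.7 ± 6.43 (SD, n = 3), a difference of -10.0, with p = 0.1 in a two-sided exact permutation test, the smallest that 3 against 3 allows. Without A9 the difference was -6.67 and without A3 it was -6.33. Per 10000 coding variants of protein-coding genes the groups were at 18.8 ± 2.82 and 22.7 ± 3.83 (SD, n = 3 each) and overlapped, with an exact permutation p of 0.3.

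No single segment separated the gels. Of the 241 segments, 19 had at least 3 coding variants over the 6 gel tumours and were tested with edgeR's quasi-likelihood test. None passed an adjusted p of 0.05 (the same held for 0.0% of all 6250 genes tested), none had an unadjusted p under 0.05 (2.7% of all genes did), and DESeq2 called none. Of the 19, 10 had a lower mean in stiff tumours, 4 a higher and 5 an equal one, with a median difference of -0.333 variants against 0.0 over all genes tested. Nor did any of the 19 have groups that did not overlap, against 1.42% of all genes tested that were higher in every stiff tumour and 2.61% that were lower.

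For flanking variants, too, no segment passed edgeR's adjusted threshold: with all listed variants counted, it called none of 190 segments and 0.0% of all genes. An unadjusted p under 0.05 was found in edgeR for 15 of the 190, beside 3080 of 42389 genes. Of 190 segments with enough MODIFIER variants, 20 (10.5%) had all stiff tumours below all soft tumours and none had them above, beside 7.52% below and 1.54% above among all genes. Runs of neighbours, which can list the same variants, made up most of the 20: Traj55 to Traj49, Traj15 to Traj11, and Traj4 with Traj3. Traj50 had 5, 6 and 7 MODIFIER variants in the soft tumours and 0 in all 3 stiff tumours, and Traj13 had 5, 10 and 12 against 4, 3 and 4. Traj49, Traj50, Traj51 and Trav11d met the minimum sum of 3 only with the soft tumours counted. Their separation is therefore a description and not support for a difference. Without A9, 22 of 175 segments (12.6%) were lower and 30 (17.1%) higher in both remaining stiff tumours, beside 12% and 4.02% of all genes. A9 was left out for its low counts, which by itself allows more segments to be higher. These figures therefore describe how far A9 moved the counts and carry no test. The summed MODIFIER counts were 1907 ± 562 in stiff and 2307 ± 102 in soft tumours (SD, n = 3 each), with an exact permutation p of 0.3.

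The KO and WT hosts address how lipid peroxidation in host myeloid cells relates to DNA damage in the tumour. The WT-host tumours carried 95, 54 and 51 TR coding variants (B1, B2, B3) and the KO-host tumours 52, 24 and 46 (B4, B5, B6). The groups overlapped at B4, which lay above B3. The means were 40.7 ± 14.7 in KO and 66.7 ± 24.6 in WT hosts (SD, n = 3 each), a difference of -26.0 with a two-sided exact permutation p of 0.2, and without B1 it was -11.8. Protein-coding genes carried 27337, 23285 and 20919 coding variants in B1, B2 and B3 and 18163, 14434 and 24672 in B4, B5 and B6. B1 was highest and B5 lowest in both measures, while B6 had more coding variants than B4 in the exome and fewer in the TR genes.

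Among single segments, the coding counts of Trgv2 and Trav3-4 did not overlap between the hosts, in opposite directions. Both met the minimum sum of 3 only through the host group in which they were high. Their separation is therefore a description and not support for a difference. Trgv2, a gamma-chain V segment, had 2, 2 and 5 coding variants in the WT-host tumours and 0 in all KO-host and gel tumours, mostly synonymous and splice-region variants. Trav3-4, an alpha-chain V segment, had 1, 2 and 2 in the KO-host tumours and 0 in all WT-host and gel tumours. Trgv2 was thus 1 of 32 tested segments lower in every KO tumour, beside 4.6% of all genes, and Trav3-4 was 1 of 32 higher, beside 0.928%. No segment passed edgeR's quasi-likelihood test after Benjamini-Hochberg adjustment, as with 0.0% of all 7223 genes, and DESeq2 called none. Trgv2 and Trav3-4 were the 2 segments with an unadjusted p under 0.05 in edgeR, beside 3.96% of all genes. Of the 32, 20 had a lower mean in KO hosts, 6 a higher and 6 an equal one, and the median difference was -0.333 variants, as it was over all genes tested. In MODIFIER counts, Trav3-4 ran the other way, with 67, 39 and 35 in WT and 15, 16 and 33 in KO hosts.

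For MODIFIER counts, 17 of 185 segments (9.19%) were lower in every KO-host tumour and none was higher, beside 6.9% and 0.909% of all genes. Examples were Trdv3, with 26, 8 and 7 in WT and 2, 0 and 2 in KO hosts, and Trgv1, with 14, 15 and 13 against 4, 5 and 5. Without B5, 18 of 185 (9.73%) were lower and 3 (1.62%) higher, beside 8.66% and 3.36% of all genes. B5 was left out for its low counts, so these figures carry no test. The summed MODIFIER counts overlapped widely, at 2201 ± 831 in KO and 2914 ± 782 in WT hosts (SD, n = 3 each, exact permutation p = 0.5).

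Gel and host tumours differed in both gel and host genotype, which cannot be told apart, and the labels give no age for the GPX4 hosts. The 6 gel tumours carried 24 to 48 TR coding variants and the 6 host tumours 24 to 95. A9 and B5 tied for the lowest, and apart from B5 the host tumours lay at 46 or more and the gel tumours, except A3 with 48, at 38 or less. The means were 35.7 ± 7.76 in gel and 53.7 ± 23.1 in host tumours (SD, n = 6 each), a difference of -18.0 with a two-sided exact permutation p of 0.0693. Without B1 the difference was -9.73, without B5 it was -23.9 and without A9 and B5 it was -21.6. B5, A9 and B1 were singled out by these same counts, so the values without them describe how far single tumours move the difference and carry no test. Per 10000 coding variants of protein-coding genes the difference was -3.64 (exact permutation p = 0.277). MODIFIER sums were 2107 ± 422 in gel and 2558 ± 820 in host tumours (SD, n = 6 each), with an exact permutation p of 0.253. Over the 9 tests of coding counts, MODIFIER counts and MODIFIER shares, each with all tumours, the smallest Benjamini-Hochberg adjusted value was 0.45.

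**Figure D4:**
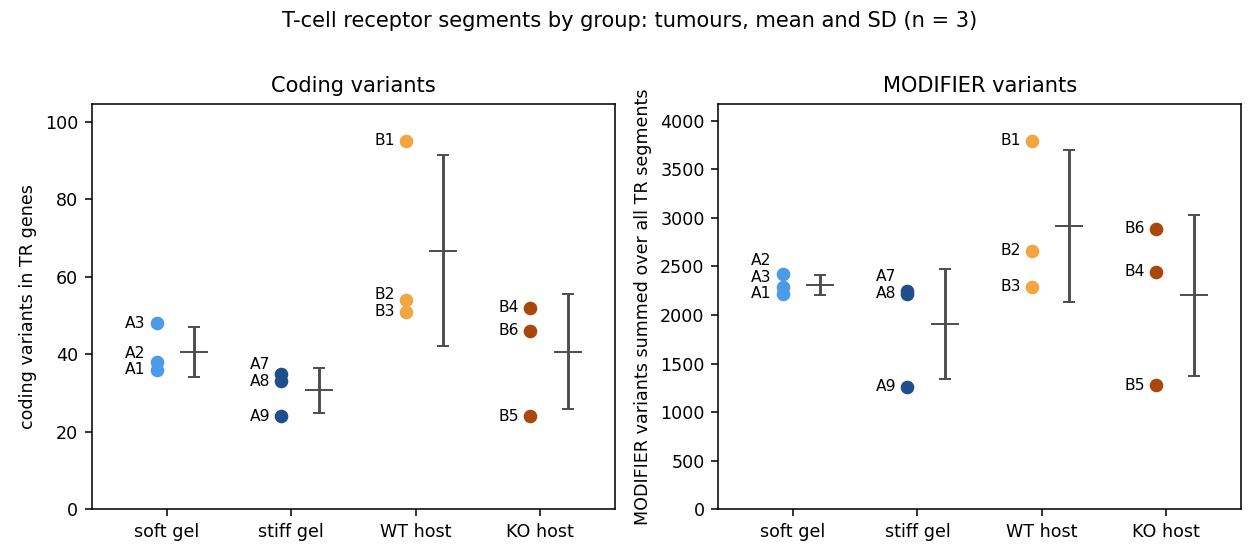
Coding variants in the 202 TR genes (left) and MODIFIER variants summed over the 241 segments (right) per tumour, in the 4 groups of 3, with the mean and SD beside the points. A9 and B5 are lowest in both panels and B1 is highest.

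At the level of segments, 38 were tested between gel and host with edgeR's quasi-likelihood test and none passed an adjusted p of 0.05, as with 0.0% of all 9410 genes. Of the 38, 6 had an unadjusted p under 0.05, beside 11.4% of all genes: Trav15d-2-dv6d-2, Trav3-1, Trav13-5, Trgv2, Trav3-4 and Trav5-1, each with an adjusted p of 0.414 and more variants in host tumours. All 6 met the minimum sum of 3 only with the host tumours counted, so their unadjusted values are descriptions. DESeq2 called none of the 38. Of these, 20 had a lower mean in gel tumours, 12 a higher and 6 an equal one, with a median difference of -0.167 variants, the same as over all genes tested. Trav13-5, for example, had 2 each in B1, B3 and B6 and 0 in the other 9. No segment had gel and host tumours that did not overlap in coding counts, beside 0.0% of all genes higher and 0.213% lower in every gel tumour, and none of 211 did so in MODIFIER counts, beside 0.0681% and 0.594%. Over all 70 segments with coding variants, 36 had them in host tumours alone, 9 in gel tumours alone and 25 in both. Of the 36, 24 rested on a single host tumour. The same split was not made over all genes. Protein-coding genes also carried more coding variants in host tumours (mean 21470) than in gel tumours (mean 17120).

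With all listed variants counted, MODIFIER included, 2 of 211 segments passed edgeR's adjusted threshold between gel and host. Trav7d-3 had 0, 0, 0, 2, 3 and 0 MODIFIER variants in the gel tumours and 15, 8, 10, 12, 11 and 2 in the host tumours, in sample order, plus 3 coding variants in B1 and 3 in B6. Its log2 fold change for gel over host was -3.49 ± 0.663 (approximate SE), with an edgeR adjusted p of 0.0349. Trav19 had 1 variant in A2, none in the other gel tumours, and 13, 5, 4, 4, 0 and 10 MODIFIER variants in the host tumours, with 2 coding variants in B1. Its log2 fold change was -4.47 ± 0.943 (approximate SE), with an edgeR adjusted p of 0.041. Trav19 met the minimum sum of 3 only with the host tumours counted, so its values are a description and not support for a difference. In this setting 393 of 48555 genes (0.809%) were called. For Trav7d-3, every host tumour lay above every gel tumour once coding variants were added, with B6 the closest. In MODIFIER counts alone the groups overlapped, with 2 in B6 and 3 in A8. The share of all genes separated in the summed count was not computed, so this is a description. For Trav19 the groups overlapped, because B5 was at 0.

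The TR coding count followed the number of coding variants in the rest of the exome. Over the 12 tumours, Pearson's r with the coding variants of protein-coding genes was 0.849 (permutation p = 0.00028) and Spearman's rho 0.872 (permutation p = 0.00033). Without B1 and B6, the 2 tumours farthest from the median, r was 0.833 and rho 0.924 (permutation p = 0.00187 and 0.00044). Within the 6 gel tumours r was 0.653 and rho 0.886 (exact permutation p = 0.16 and 0.0333), and within the 6 host tumours r was 0.808 and rho 0.60 (exact permutation p = 0.0583 and 0.242). The relation among all tumours was thus not shown by both measures within either kind of tumour. Benjamini-Hochberg values over the 6 relations computed were 0.00084 for r over all tumours, 0.16 within gel and 0.07 within host tumours. For rho they were 0.000735, 0.04 and 0.242. Tumours share capture kit, genome build and fragment strain, and which of the named NovaSeq instruments sequenced each tumour is not given in the sources used here, so an instrument batch cannot be told apart from the groups.

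**Figure D5:**
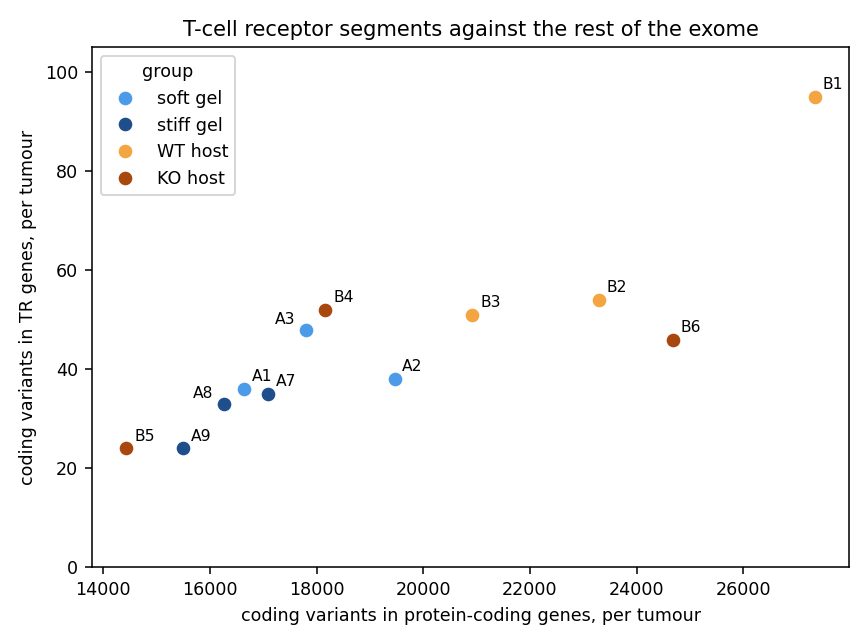
TR coding variants (vertical axis, 202 genes) against coding variants of protein-coding genes (horizontal axis) for the 12 tumours, coloured by group. The points run from B5, at 14434 and 24, to B1, at 27337 and 95, and B6 and A2 carry fewer TR variants than neighbouring tumours.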

How the data were processed

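Per the labels, tumour DNA was captured with an Agilent mouse exon kit and sequenced at a stated depth above 50x. The submitters' processing notes name GATK, SAMtools 1.19.2, BWA 2.2.1 and the build GRCm39. For caller settings, filters and any matched normal, the sources used here say nothing. The deposited tables, per the file headers, hold counts of variants per transcript from snpEff. For each gene the maximum over its TR_ transcripts was taken in each column, and a gene not listed counted as 0. In 8 TR genes, 50 transcript rows of other biotypes were left out. Segment order came from a RefSeq table of another build (GRCm38.p6), which matched 241 of 241 symbols and from which no coordinates were used. Genes with a sum of at least 3 coding variants were tested with edgeR 4.0.16 (quasi-likelihood, equal library sizes, Benjamini-Hochberg) in R 4.3.3, checked on simulated counts. DESeq2 1.42.0 was an alternative. Sums were compared with exact permutation tests, and correlations over 12 tumours with 100000 permutations (scipy 1.17.1). Segments were named by rule: all C segments, the 10 with the highest mean coding count, those whose groups do not overlap, those with HIGH variants or equal counts in all 12 tumours, 5 pseudogenes by exon variants, and D or J segments with coding variants. Others were added after their values were seen. Members and lists were chosen with earlier results of these data known. The result of 1 gene of the T-cell list is not reported here.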

Additional observations from a re-analysis of the deposited data

Results flagged for a closer look

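Within the 6 gel and the 6 host tumours, 19 of the lowest or highest values stood far from the next one (Dixon's test, critical value 0.625), out of 55 groups of values checked. Chance flags about 1 in 20 groups, and counts near 0 with ties are flagged easily. A9 was low in TR MODIFIER sum (1259, next 2216), in TR MODIFIER variants per 10000 of protein-coding genes (37.5, next 53.4), in Tra MODIFIER sum (1060, next 1917), in Trd MODIFIER sum (102, next 173) and in Trav5-4 coding variants (4, next 6), and high in Trav3-1 (2, next 0). Among host tumours, B5 was low in Trav5-4 (3, next 6). A3 was high among gel tumours in HIGH variants (12, next 7), in Trac (2, next 0) and in Trav9d-2 (4, next 3). A2 was high in Trd coding variants (9, next 3) and was at 0 for Trav4-1, where the other gel tumours had 1. A1 had 2 coding variants each in Traj2 and Traj3, where the other gel tumours had 0. A7 was high in Trav12d-1 (6, next 2), as was B4 among host tumours (6, next 1). B1 had the single Trb coding variant (1, next 0) and was high in Trgc4 (4, next 1), and B6 had 2 coding variants in Trav14d-2, where the other host tumours had 1.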

How the results depend on the processing

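The differences in TR coding sums were negative under each of the coding alternatives run. Leaving out each tumour in turn gave -12.3 to -6.33 for stiff minus soft, -33.8 to -11.8 for KO minus WT host and -23.9 to -9.73 for gel minus host. Gel minus host, not past 0.05 in the main test, passed it without the Trav d and n copies (-15.0, exact permutation p = 0.0281). This p is not adjusted for the many settings run, and 17 of the others kept the main direction without passing 0.05. Among those was the count per 10000 coding variants of protein-coding genes (exact permutation p = 0.277). The difference was -21.6 without A9 and B5 and -23.9 without B5, but these tumours were left out for their low counts, which by itself changes the difference, so no p is read from it. In the MODIFIER share of the exome, per 10000 MODIFIER variants of protein-coding genes, a measure chosen after seeing the data, gel minus host turned to 6.82 (exact permutation p = 0.167), and to 8.31 without A9 and B5. The cause was not tested. No segment passed edgeR's threshold in the stiff and soft or the KO and WT comparison under any alternative, including each tumour left out, and 2 did between gel and host when all listed variants were counted. Over all genes, gel against host gave 0 calls with edgeR, 6 with DESeq2, 3 with library sizes scaled to total coding variants and 393 with all listed variants. The correlation with the exome stayed between 0.752 and 0.928 with each tumour left out. No paired analysis was possible because the groups share no replicate numbers. Counts per segment are small, and with no read depth a 0 cannot be told from a segment with few reads.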
